A study of Mus musculus with 8 samples.

Results

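The genes described here are 33 genes of glycolysis and of the response to low oxygen. They were followed in mouse embryonic stem cells (mESCs) sorted by a KLF3-GFP reporter or overexpressing the transcription factor KLF3 or GFP. They were taken from both deposited expression tables by their gene symbols. All 33 were listed among the 13056 protein-coding genes of the sorted-cell table and the 14319 genes of the overexpression table. The glycolytic enzymes make up 17 of them, from hexokinase to lactate dehydrogenase, and the other 16 are hypoxia genes. The latter fall into 4 genes of pyruvate dehydrogenase and its kinases, 4 genes of oxygen sensing, and 8 further genes that hypoxia is known to induce.

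The study asked how mESCs that hold KLF3 protein differ from those that do not, and it comprised 8 RNA-seq samples in 4 conditions, with 2 samples per condition. In the first experiment, a KLF3-GFP reporter line was sorted into positive and negative cells, 500 per sample, which were sequenced by Smart-seq2, a method that amplifies full-length cDNA from few cells. The reporter was a fusion of GFP with an N-terminal piece of KLF3 that lacks the DNA-binding domain, driven by the constitutive CAGGS promoter, and both sorted groups carried it together with DsRed. In the second experiment, codon-optimized Klf3 or GFP stood at the same engineered Col1A1 site in a line with the rtTA activator at Rosa26, was induced with doxycycline, and was profiled at 72 hours by poly(A) RNA-seq. Every sample is labelled C57BL/6(F) x 129/sv(M), with a developmental age of 3.5 days. All cells grew in serum with leukaemia inhibitory factor, and the overexpressing cells were picked clones. The oxygen level of the cultures is not given in the sources used here.

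Both tables hold FPKM (fragments scaled to transcript length and library size), 1 value per gene and condition, which is the authors' mean of 2 samples. The value of each sample, the spread between samples and the sequencing depth are therefore unknown, and no difference below was tested or carries an error. A difference is log2(FPKM + 1) in positive minus negative sorted cells, or in KLF3 minus GFP overexpression. It was read for genes whose 2 columns averaged 1 FPKM or more, and "past 2-fold" refers to this scale, on which low genes appear to differ less than they do. Both experiments were normalized separately, and levels were not compared between them. They also differed in engineered line and library protocol, from which an isozyme share that differs between them cannot be told apart.

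In glycolysis, glucose is phosphorylated by hexokinase, committed by phosphofructokinase, split by aldolase and turned into pyruvate. Lactate dehydrogenase reduces pyruvate to lactate, or pyruvate dehydrogenase turns it into acetyl-CoA inside the mitochondrion. Pyruvate dehydrogenase kinases shut the latter route by phosphorylating the E1 subunit of pyruvate dehydrogenase. At normal oxygen, prolyl hydroxylases (the Egln genes) mark HIF1α for destruction by the VHL ligase; when oxygen falls, HIF1α pairs with ARNT, binds short hypoxia response elements and raises genes of glucose uptake, glycolysis, pyruvate dehydrogenase kinase, mitophagy and vessel growth. mESCs in serum are known for strong glycolysis even with oxygen present.

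The windows upstream of 4 members are shown because they span the directions found below: Hk2 was past 2-fold higher with KLF3 overexpression, Ldhb was lower in both experiments, Pdk1 was lower in sorted KLF3-GFP-positive cells, and Bnip3 had the lowest difference with overexpression. Each is the 250 bases before the start of the gene in RefSeq (GRCm38.p6), on the gene's own strand from 5′ to 3′, and capitals mark ACGTG or GCGTG on either strand, the core of the hypoxia response element. The windows lie at chr6:82774455-82774704 (minus strand), chr6:142507958-142508207 (minus strand), chr2:71872974-71873223 (plus strand) and chr7:138909507-138909756 (minus strand).
Hk2: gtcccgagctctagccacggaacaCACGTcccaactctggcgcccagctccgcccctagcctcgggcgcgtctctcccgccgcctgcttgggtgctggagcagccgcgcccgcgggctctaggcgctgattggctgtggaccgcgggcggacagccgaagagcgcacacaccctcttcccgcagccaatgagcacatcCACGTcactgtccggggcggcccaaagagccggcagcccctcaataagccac
Ldhb: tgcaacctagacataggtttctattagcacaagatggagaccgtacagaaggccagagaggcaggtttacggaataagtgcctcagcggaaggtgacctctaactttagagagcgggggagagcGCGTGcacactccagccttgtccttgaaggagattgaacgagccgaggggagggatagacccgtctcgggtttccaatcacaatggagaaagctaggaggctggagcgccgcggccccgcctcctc
Pdk1: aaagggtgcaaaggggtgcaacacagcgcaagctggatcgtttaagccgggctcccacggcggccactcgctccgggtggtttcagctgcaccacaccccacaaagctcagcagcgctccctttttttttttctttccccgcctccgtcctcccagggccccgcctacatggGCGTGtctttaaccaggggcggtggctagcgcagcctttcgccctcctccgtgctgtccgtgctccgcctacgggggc
Bnip3: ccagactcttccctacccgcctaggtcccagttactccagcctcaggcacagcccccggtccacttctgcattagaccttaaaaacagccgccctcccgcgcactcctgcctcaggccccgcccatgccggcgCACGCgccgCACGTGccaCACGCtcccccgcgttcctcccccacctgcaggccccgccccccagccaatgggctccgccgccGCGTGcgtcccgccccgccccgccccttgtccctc

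The Hk2 window held 2 cores, at -226 and -52 from the start, and the Ldhb window 1, at -126. Pdk1 had 1 in the stretch shown, at -78, and another at -2 that runs across the start. Bnip3 had 5 matches, at -117, -108, -107, -99 and -35; those at -108 and -107 are both strands of 1 CACGTG. Windows were found for 31 of the 33 members (not for Bnip3l and Ndrg1), and over their full 300 bases, 250 before and 50 after the start, 24 of 31 (77.4%) held a core. The count was 11 of 17 for glycolytic enzymes and 13 of 14 for hypoxia genes. The core stood in 43.8% of all 32851 windows and in 63.2% of the 11200 windows of genes that passed the expression minimum in either experiment. These backgrounds count every window of a gene, whereas each member has 1. The letters CACCC, a motif bound by KLF proteins, stood on either strand in 18 of 31 members' windows (58.1%), in 57.5% of all windows and in 63.6% of those of expressed genes. A match in so short a window is a description of letters and not a binding site.

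Over all genes, 9212 passed the expression minimum in sorted cells and 11179 in the overexpression experiment. Their median difference was 0.03 and -0.18, so differences of members with overexpression are also given relative to that median where they pass 2-fold. Those of genes outside the members are given without it. In the overexpression experiment, long genes were lower: from the shortest to the longest of 5 equal bins of genomic span, the median over all genes was 0.35, -0.01, -0.22, -0.44 and -0.49, against -0.03 to 0.12 in sorted cells. Ribosomal protein genes took 29.0% of the summed FPKM with GFP and 39.1% with KLF3 overexpression, and 30.6% and 26.3% in negative and positive sorted cells. The mRNA of Eif2s3y, a gene of the Y chromosome chosen after its values were seen, was at 30.9 FPKM with GFP and 1.67 FPKM with KLF3 overexpression. The overexpressing cells were picked clones, so differences between clones cannot be told apart from those of KLF3 in any value with overexpression. Klf3 was at 107 and 122 FPKM in negative and positive cells, which both carry the reporter with its piece of KLF3. Reads of that reporter may be part of these values, which was not tested. With GFP and KLF3 overexpression Klf3 was at 58.7 and 47.8 FPKM. The transgene there is codon-optimized, so this does not check the labels of the overexpressing cells.

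As for the cell type, the summed FPKM of 6 pluripotency genes went from 446 in negative to 204 in positive cells, with Nanog, Sox2, Zfp42 and Esrrb past 2-fold lower. It went from 1775 with GFP to 1443 with KLF3 overexpression, with Nanog, Esrrb and Klf4 past 2-fold lower. There, Sox2 (-0.60) and Zfp42 (-0.82) were lower by less, and Pou5f1, the highest of the 6, was higher, at 883 and 990 FPKM (0.16). All 7 primitive endoderm markers (Gata4, Gata6, Sox17, Sox7, Foxa2, Pdgfra and Dab2) were past 2-fold higher in both experiments (Sox7 with overexpression only at 0.93 without the span trend), with sums of 6.92 and 352 FPKM in sorted cells and 14.2 and 76.6 FPKM with overexpression. The fibroblast and feeder markers that were listed summed to 0.55 and 0.51 FPKM in sorted cells (2 of 7) and to 3.13 and 3.83 FPKM with overexpression (3 of 7). Of 6 trophoblast markers, 5 were listed in each table, with sums of 3.79 and 3.23 FPKM in sorted cells and 30.4 and 22.0 FPKM with overexpression. Hand1 was past 2-fold higher with overexpression, whereas Tfap2c, which made up most of that sum, was lower, at 26.2 and 13.1 FPKM (-0.95). The part of these marker genes' cells in the differences below was not tested, and in these bulk samples fewer cells of a type and less RNA per cell cannot be told apart.

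Among the glycolytic enzymes in sorted cells, lactate dehydrogenase B was past 2-fold lower and no enzyme was past 2-fold higher. Of the 17, 16 passed the expression minimum (not Eno2), and their median difference was -0.22, beside 0.03 over all genes. Differences below 0 were found for 12 of 16, or for 13 where both columns were scaled to the same median ratio, quantile normalized or freed of the trend with span. Past 2-fold lower was 1 of 16 glycolytic enzymes, where the background over all genes was 8.32%, and 13.8% of all genes were past 2-fold higher. The summed FPKM of the 17 enzymes made up 0.429% of the table in negative and 0.337% in positive cells.

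With KLF3 overexpression, 1 glycolytic enzyme was past 2-fold higher, Hk2, and 2 were past 2-fold lower, Pfkp and Ldhb, of 17 that passed the minimum. Over all genes, 6.6% were past 2-fold higher and 10.1% past 2-fold lower. The median over the 17 was -0.19, close to the -0.18 over all genes, and it was 0.01 after median-ratio scaling and -0.63 after quantile normalization. The 17 enzymes made up 1.85% of the summed FPKM with GFP and 1.31% with KLF3. Their own sum differed little, at 11360 FPKM with GFP and 10959 FPKM with KLF3. The sum over all genes was larger with KLF3, at 612621 FPKM with GFP and 834882 FPKM with KLF3.

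**Figure D1:**
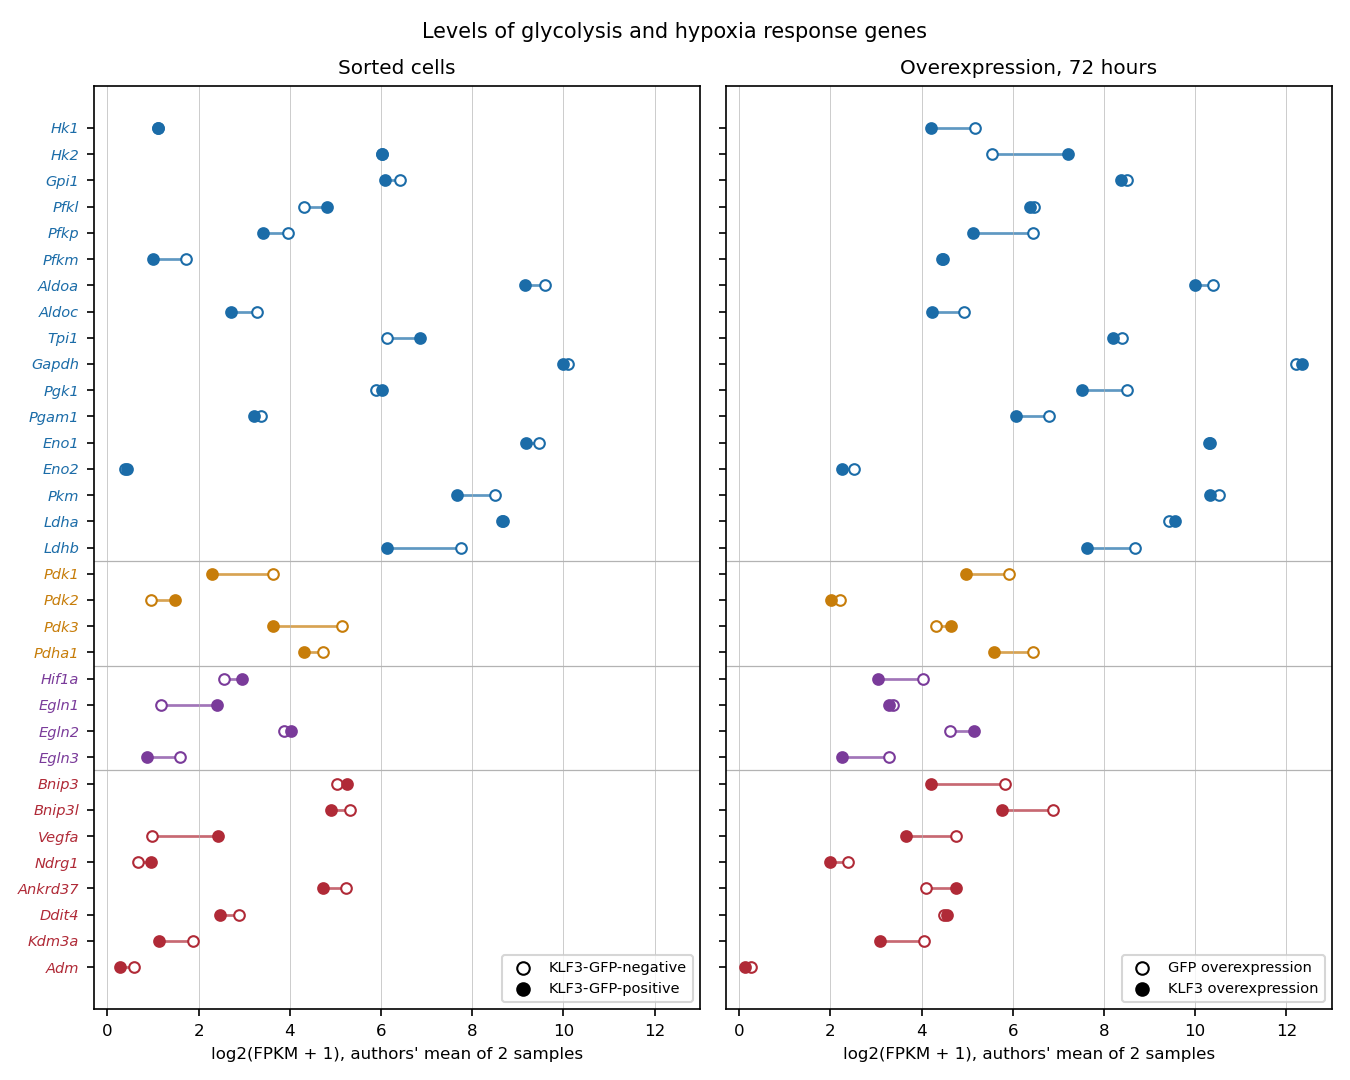
Levels of the 33 members as log2(FPKM + 1), the authors' mean of 2 samples, with open circles for the control (KLF3-GFP-negative cells or GFP overexpression) and filled circles for KLF3-GFP-positive cells or KLF3 overexpression. Blue marks glycolytic enzymes, orange pyruvate dehydrogenase and its kinases, purple oxygen sensing and red other hypoxia targets; no error is known. The long lines to the right and left stand for Hk2 with overexpression (1.68) and Ldhb in sorted cells (-1.63).

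Hexokinase commits glucose to the cell, and the differences of its isozymes were not alike in sorted and in overexpressing cells. Hk2, the inducible isozyme that binds mitochondria, was at 63.6 FPKM in negative and 64.0 FPKM in positive cells, a difference of 0.01 whose sign turned with each of the 3 scalings named above. With GFP overexpression Hk2 was at 45.3 FPKM and with KLF3 at 147 FPKM. This difference of 1.68, or 1.86 relative to the median of all genes, lay at percentile 98.9 of all genes. It exceeded 2-fold under each of the 7 alternatives run, from 1.48 to 2.14, although the gene spans 49.4 kb and long genes were lower here. Hk1, the constitutive isozyme, was at 35.1 FPKM with GFP and 17.4 FPKM with KLF3, a difference of -0.97, and at 1.16 and 1.15 FPKM in sorted cells. Hk2 thus made up 56.3% of the FPKM of both isozymes with GFP and 89.4% with KLF3, and 98.2% in either sorted group. Hkdc1, a relative of the hexokinases, was past 2-fold higher in both experiments, at 0.10 and 3.87 FPKM in negative and positive cells (2.15) and at 0.65 and 2.99 FPKM with GFP and KLF3 (1.27). The 0.10 FPKM is the lowest value given for any gene. Hkdc1 was above 1 FPKM only in the higher group of each experiment, and it lay under the alternative minimum of 5 FPKM.

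Gpi1, which isomerizes glucose 6-phosphate, was at 84.0 and 67.3 FPKM in negative and positive cells and at 363 and 332 FPKM with GFP and KLF3. Of the phosphofructokinases, the platelet-type Pfkp was at 14.5 and 9.68 FPKM in sorted cells (-0.54). With overexpression Pfkp went from 86.1 FPKM with GFP to 33.9 FPKM with KLF3, a difference of -1.32, or -1.14 relative to the median, and of -0.83 once the trend with span was removed (the gene spans 69.0 kb). The liver-type Pfkl was at 18.8 and 27.2 FPKM in sorted cells (0.51) and at 87.3 and 81.7 FPKM with overexpression. The muscle-type Pfkm was at 2.32 and 0.99 FPKM in sorted cells (-0.74) and at 20.9 and 21.2 FPKM with overexpression. Pfkl therefore took a larger part of the family in KLF3-GFP-positive cells (71.8%) than in negative cells (52.8%). With overexpression its part was likewise larger with KLF3 (59.7%) than with GFP (44.9%). The part of Pfkp was smaller, at 40.7% in negative and 25.6% in positive cells and at 44.3% with GFP and 24.8% with KLF3.

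**Figure D2:**
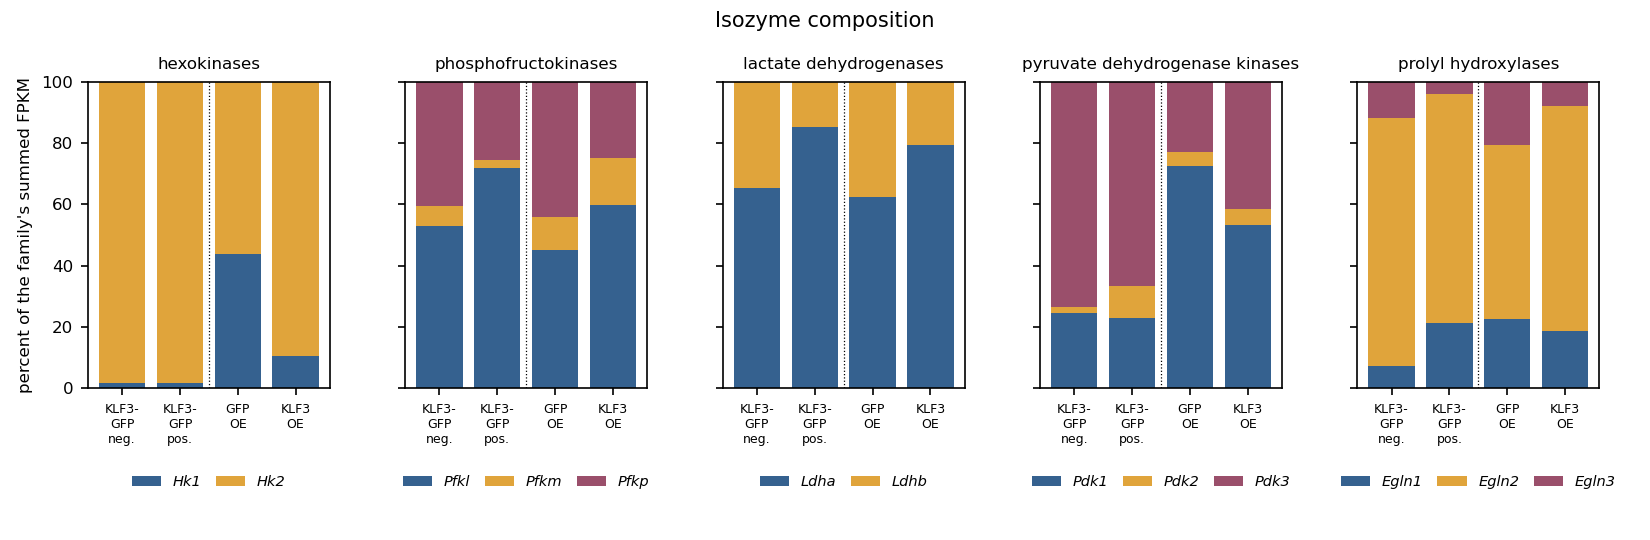
Share of each isozyme in the summed FPKM of its family (percent), in KLF3-GFP-negative, KLF3-GFP-positive, GFP overexpressing (OE) and KLF3 overexpressing cells, from the authors' means with no error known. Ldhb and Pfkp had smaller shares in KLF3-GFP-positive cells and with KLF3 overexpression than in the respective controls. Hk2 had a larger share with KLF3 overexpression (56.3% with GFP and 89.4% with KLF3).

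Aldolase, triose phosphate isomerase and glyceraldehyde 3-phosphate dehydrogenase carry the split sugar onwards. Aldoa held 97.9% to 99.0% of the FPKM of the 2 aldolases and was at 774 and 568 FPKM in negative and positive cells (-0.45) and at 1347 and 1018 FPKM with GFP and KLF3 (-0.40). Aldoc was lower as well, at 8.78 and 5.59 FPKM in sorted cells (-0.57) and at 29.6 and 17.8 FPKM with overexpression (-0.70). Tpi1 was at 68.9 and 114 FPKM in negative and positive cells, at 0.72 the highest difference among the enzymes there, and at 333 and 294 FPKM with overexpression. Gapdh was at 1089 and 1014 FPKM in sorted cells (-0.10) and at 4703 and 5218 FPKM with overexpression (0.15, below 0 after quantile normalization and without the span trend).

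Gapdh is often used to scale other transcripts, as are the genes that follow. Actb was at 4265 and 8659 FPKM in negative and positive cells (1.02) and at 678 and 1240 FPKM with GFP and KLF3 (0.87). Hsp90ab1 was at 3145 and 2285 FPKM in sorted cells (-0.46) and at 2061 and 2278 FPKM with overexpression (0.14). Sdha was at 70.0 and 72.6 FPKM in sorted cells (0.05) and at 97.6 and 68.7 FPKM with overexpression (-0.50), and Hprt at 104 and 76.1 FPKM (-0.45) and at 103 and 90.7 FPKM (-0.19). The ratio of Gapdh to Actb was 0.255 in negative and 0.117 in positive cells, and 6.94 with GFP and 4.21 with KLF3. Its ratio to Hsp90ab1 was 0.346 and 0.444 in sorted cells and 2.28 and 2.29 with overexpression. B2m was past 2-fold higher in both experiments, at 14.7 and 183 FPKM in sorted cells and at 17.7 and 58.6 FPKM with overexpression, and Tbp was past 2-fold lower with overexpression, at 37.8 and 14.4 FPKM.

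The payoff enzymes gave values in either direction. Pgk1, the first ATP-forming enzyme, was at 58.3 and 64.3 FPKM in negative and positive cells (0.14) and at 359 and 183 FPKM with GFP and KLF3 (-0.97). Pgk1 lies on the X chromosome, where the median of 361 genes with overexpression was -0.29, beside -0.17 for autosomal genes. Pgam1, a phosphoglycerate mutase, was at 9.29 and 8.23 FPKM in sorted cells (-0.16) and at 110 and 66.2 FPKM with overexpression (-0.72). Eno1, the main enolase, was at 704 and 576 FPKM in sorted cells (-0.29) and at 1268 and 1283 FPKM with overexpression (0.02); its near-identical copy Eno1b was listed at 25.1 and 22.5 FPKM and at 150.3 and 179 FPKM, so reads may have been split between them. Eno2 was at or below 4.75 FPKM in every condition. Pkm, which makes pyruvate, was at 362 and 201 FPKM in negative and positive cells (-0.84) and at 1473 and 1290 FPKM with overexpression. The muscle isozymes outside the 33 genes, Pgam2 (8.49 and 1.27 FPKM, -2.06) and Eno3 (20.8 and 2.96 FPKM, -2.46), were past 2-fold lower in KLF3-GFP-positive cells and not with overexpression, where they were at 6.53 and 7.91 FPKM and at 14.1 and 18.2 FPKM.

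Lactate dehydrogenase closes the path. Ldhb, the H subunit, was at 216 FPKM in negative and 69.4 FPKM in positive cells, a difference of -1.63 that stayed past 2-fold under each of the 7 alternatives. With overexpression it was at 412 FPKM with GFP and 196 FPKM with KLF3, a difference of -1.06, or -0.89 relative to the median. This second difference was -0.86 with median-ratio scaling and -0.91 without the span trend, and so no longer past 2-fold. Ldha, the M subunit, was at 406 and 399 FPKM in sorted cells (-0.03) and at 682 and 755 FPKM with overexpression (0.15, below 0 after quantile normalization). The ratio of Ldha to Ldhb accordingly went from 1.88 in negative to 5.75 in positive cells and from 1.66 with GFP to 3.84 with KLF3 overexpression; being a ratio within a column, it does not depend on a scaling factor of the column.

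The hypoxia genes held most of the members past 2-fold. In sorted cells, 14 of the 16 passed the expression minimum, with a median of -0.41. Its parts differed: the median was -0.88 for pyruvate dehydrogenase and its kinases, 0.26 for oxygen sensing and -0.41 for the other hypoxia targets. Egln1 and Vegfa were past 2-fold higher, and Pdk1 and Pdk3 past 2-fold lower. Over all 30 members that passed, 2 were thus past 2-fold higher and 3 lower, against backgrounds of 13.8% and 8.32%. With overexpression, 15 passed, with a median of -0.86, beside -0.18 over all genes. The medians of the same parts, in that order, were -0.53, -0.54 and -0.96. There, none was past 2-fold higher, and Egln3, Bnip3, Bnip3l and Vegfa were past 2-fold lower. Over all 32 members that passed, 1 was past 2-fold higher and 6 lower, against backgrounds of 6.6% and 10.1%. The 6 became 2 with median-ratio scaling (Pfkp and Bnip3) and 1 without the span trend (Bnip3).

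The pyruvate dehydrogenase kinases inhibit pyruvate dehydrogenase. Pdk1, the kinase best known as a HIF target, was at 11.4 and 3.89 FPKM in negative and positive cells (-1.34) and at 59.2 and 30.6 FPKM with GFP and KLF3 (-0.93). Pdk3 was at 34.4 and 11.4 FPKM in sorted cells (-1.51) and at 18.9 and 24.02 FPKM with overexpression (0.33). Pdk2 was low throughout, at 0.94 and 1.78 FPKM in sorted cells (0.52) and at 3.63 and 3.05 FPKM with overexpression. The 3 kinases together went from 46.8 to 17.1 FPKM in sorted cells and from 81.7 to 57.7 FPKM with overexpression. Pdk3 made up most of this in sorted cells, with 73.6% in negative and 66.8% in positive cells, and Pdk1 in overexpressing cells, with 72.5% with GFP and 53.1% with KLF3. Pdha1, the E1 alpha subunit that these kinases phosphorylate, was at 25.4 and 18.8 FPKM in sorted cells (-0.42) and at 85.9 and 47.0 FPKM with overexpression (-0.86); it lies on the X chromosome, as does Pdk3.

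Of the oxygen sensors, the main HIF prolyl hydroxylase Egln1 was at 1.25 FPKM in negative and 4.33 FPKM in positive cells (1.24, or 3.46-fold without a pseudocount). It was at 9.41 and 8.74 FPKM with GFP and KLF3. Egln3, itself a known HIF target, was at 2.01 and 0.82 FPKM in sorted cells (-0.73) and at 8.74 and 3.78 FPKM with overexpression (-1.03, or -0.85 relative to the median). Egln2 was at 13.7 and 15.2 FPKM in sorted cells and at 23.8 and 34.4 FPKM with overexpression (0.51), and held the largest part of the family in every condition, from 56.7% with GFP overexpression to 80.8% in negative cells. Hif1a, the oxygen-labile subunit, was at 4.93 and 6.71 FPKM in sorted cells (0.38) and at 15.4 and 7.28 FPKM with overexpression (-0.98); HIF1α is controlled mostly as a protein, which was not measured.

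Bnip3 and Bnip3l, outer-membrane proteins that direct mitochondria to autophagy, were both past 2-fold lower with KLF3 overexpression. Bnip3 was at 55.6 FPKM with GFP and 17.5 FPKM with KLF3, a difference of -1.62, or -1.44 relative to the median, which stayed past 2-fold under each of the 7 alternatives, from -1.42 to -1.67. Bnip3l was at 117 and 53.5 FPKM (-1.11, or -0.94 relative to the median). In sorted cells Bnip3 was at 31.6 and 37.3 FPKM (0.24) and Bnip3l at 38.9 and 29.1 FPKM (-0.40), neither past 2-fold. Whether HIF bound the cores upstream of Bnip3 shown above was not measured.

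Vegfa, the growth factor of blood vessels, was past 2-fold in opposite directions. It was at 0.98 FPKM in negative and 4.36 FPKM in positive cells (1.44, or 4.45-fold without a pseudocount), and at 25.9 FPKM with GFP and 11.7 FPKM with KLF3 (-1.08, or -0.90 relative to the median). Kdm3a, a histone demethylase induced by HIF, was lower in both, at 2.70 and 1.20 FPKM (-0.75) and at 15.6 and 7.53 FPKM (-0.96). Ankrd37 was at 36.7 and 25.5 FPKM in sorted cells (-0.51) and at 16.2 and 26.1 FPKM with overexpression (0.66). Ddit4, an inhibitor of mTORC1 signalling, was at 6.41 and 4.54 FPKM (-0.42) and at 21.6 and 22.5 FPKM. Ndrg1 was at 0.60 and 0.95 FPKM in sorted cells, under the minimum, and at 4.25 and 2.98 FPKM with overexpression. Adm, a vasodilator peptide, was at or below 0.50 FPKM in every condition.

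Set side by side, 30 members passed the minimum in both experiments, which share no control samples. Of these, 13 were lower in both, 2 were higher in both (Hk2 and Egln2), 7 were lower in sorted KLF3-GFP-positive cells and higher with overexpression, and 8 the reverse (Pfkl, Tpi1, Pgk1, Pdk2, Hif1a, Egln1, Bnip3 and Vegfa). Over all 8887 genes that passed in both, 26.8% were lower in both and 23.8% higher in both. The 13 became 11 with median-ratio scaling and 16 with quantile normalization. Past 2-fold in either experiment were 10 of the 30 (33.3%), as were 33.5% of all 8887 genes. Past 2-fold in both were 2 of the 30 (6.67%), beside 4.47% of all genes: Ldhb, lower in each, and Vegfa, in opposite directions. This count was 4 with a pseudocount or floor of 0.1 (Egln3 and Kdm3a added), 1 with quantile normalization or a minimum of 5 FPKM (Ldhb), and 0 with median-ratio scaling or without the span trend. The share of all genes past 2-fold in both was not counted under these alternatives. The counts are therefore not read as a change in the members.

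**Figure D3:**
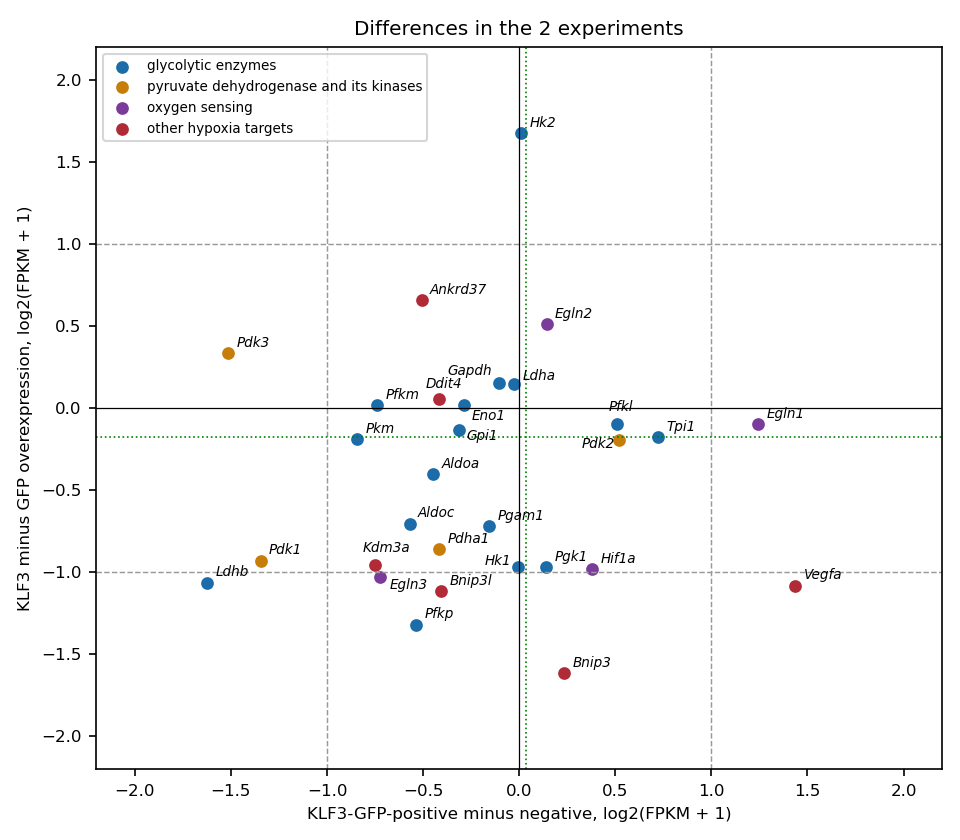
Difference in log2(FPKM + 1) between positive and negative sorted cells (horizontal) and between KLF3 and GFP overexpression (vertical) for the 30 members that passed the minimum in both; dashed lines mark 2-fold and green dotted lines the median of all genes. Ldhb lies beyond 2-fold at the lower left, Vegfa at the lower right and Hk2 at the top.

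Genes of the same pathways outside the 33 are given from lists of known function. The background for every such list is 13.8% of all genes past 2-fold higher and 8.32% lower in sorted cells. With overexpression it is 6.6% higher and 10.1% lower. Of 5 transport genes that passed the minimum, 3 were past 2-fold higher in KLF3-GFP-positive cells. These were the glucose transporter Slc2a3 (40.2 and 172 FPKM, 2.07), the lactate carrier Slc16a1 (3.89 and 20.8 FPKM, 2.16) and its chaperone Bsg (426 and 861 FPKM, 1.01, but 0.87 after quantile normalization). The glucose transporter Slc2a1, a classic HIF target, was at 29.7 and 20.1 FPKM (-0.54). With overexpression none of the 5 was past 2-fold, with Slc2a3 at 192 and 135 FPKM (-0.51) and Slc2a1 at 100.3 and 147 FPKM (0.55).

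Of the genes of pyruvate import and the dehydrogenase complex, 0 of 8 were past 2-fold in sorted cells, where Mpc2, a subunit of the mitochondrial pyruvate carrier, differed most (90.9 and 157 FPKM, 0.78). With overexpression 3 of 10 were past 2-fold: Mpc2 was higher (9.31 and 27.8 FPKM, 1.48), and Pdpr (2.30 and 0.12 FPKM, -1.56) and the kinase Pdk4 (2.41 and 0.64 FPKM, -1.06) were lower. In gluconeogenesis, G6pc3 was higher (11.6 and 28.7 FPKM, 1.24) and Pck2 lower (9.25 and 2.55 FPKM, -1.53) among 3 genes in sorted cells, and Fbp2 was higher (0.58 and 2.38 FPKM, 1.10) among 4 with overexpression. None of the 7 pentose phosphate genes was past 2-fold in either experiment, with the largest differences for Rpe in sorted cells (0.68) and Pgls with overexpression (0.82).

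Of the remaining HIF machinery, Vhl, which recognizes hydroxylated HIF1α, was past 2-fold higher in KLF3-GFP-positive cells (2.61 and 7.66 FPKM, 1.26) among 9 genes. With overexpression 3 of 11 were past 2-fold. Arnt, the partner of HIF1α, was at 19.3 and 9.01 FPKM (-1.02) and the coactivator Ep300 at 8.75 and 2.86 FPKM (-1.34), whereas Tceb2, an elongin subunit of the VHL ligase, was at 486 and 1143 FPKM (1.23). Without the span trend, the difference was -0.54 for Arnt, -0.85 for Ep300 and 0.94 for Tceb2, so none of the 3 was past 2-fold.

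A list of further hypoxia targets was read in the same way. Of 26 that passed, 9 were past 2-fold higher in KLF3-GFP-positive cells and 3 lower (Angptl4, Tfrc and Pam), beside 13.8% and 8.32% of all genes. The median was 0.70. The highest were the collagen-modifying enzymes P4ha2 (3.53 and 106 FPKM, 4.56), P4ha1 (2.12 and 38.7 FPKM, 3.67) and Plod2 (2.59 and 38.4 FPKM, 3.45), and Plod1 and Loxl2, which also act on collagen, Car12, Cited2, Plin2 and Wsb1 were the others. Primitive endoderm, whose markers were higher in the same cells, is known to secrete a collagen-rich basement membrane, and the part of such cells in these values was not tested. With overexpression, 1 of 28 was past 2-fold higher (P4ha2, 12.6 and 28.1 FPKM, 1.10), 4 were lower (Ero1l, Bhlhe40, Kdm4c and Wsb1), and the median was 0.04. The shares over all genes there were 6.6% and 10.1%.

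The trend with genomic span touched the members with overexpression. In the bin with the shortest genes, 7 members had a median of -0.18, where all genes had 0.35. In the middle bin, 9 members had -0.97 against -0.22, and in the bin with the longest genes 3 members had -0.97 against -0.49. In the bins on either side of the middle one, 6 members (shorter genes) and 7 members (longer genes) had -0.09 and -0.40 against -0.01 and -0.44. Once the trend was removed, Pfkp (-0.83), Ldhb (-0.91), Egln3 (-0.77), Bnip3l (-0.88) and Vegfa (-0.97) were no longer past 2-fold, while Hk2 and Bnip3 were.

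**Figure D4:**
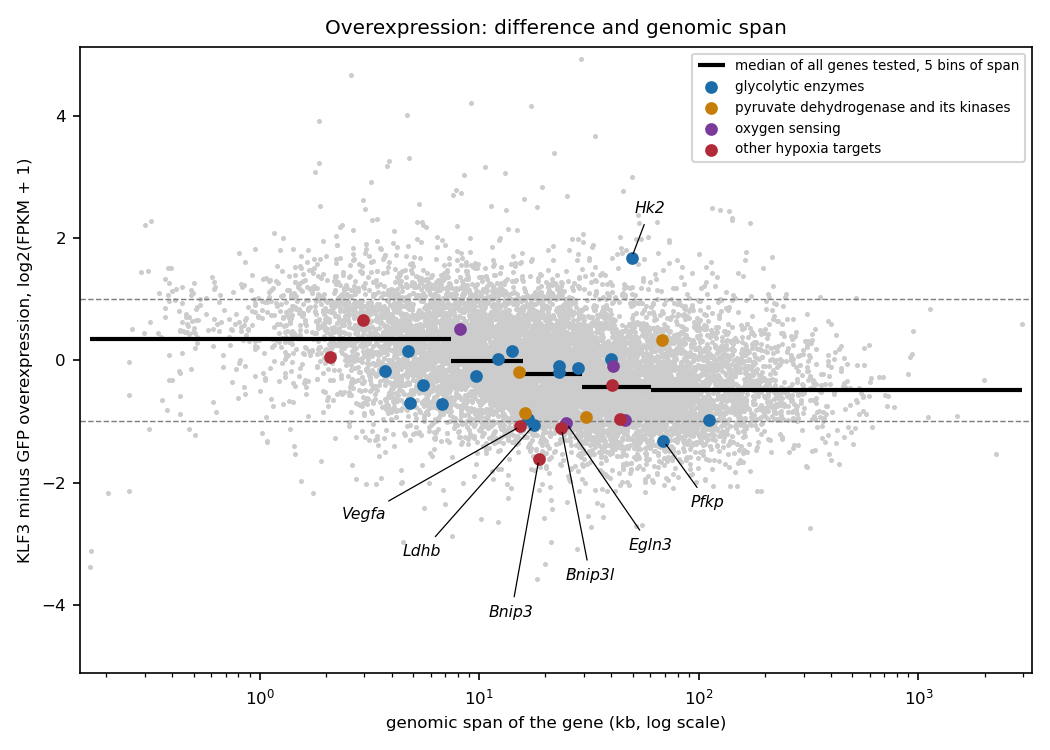
Difference in log2(FPKM + 1) between KLF3 and GFP overexpression against the genomic span of the gene (kb, log scale), for all 11179 genes that passed the minimum (grey) and the 32 members among them (colours as in the plot of levels). Black bars give the median of all genes in each of 5 bins of span and fall from 0.35 to -0.49; the 7 members past 2-fold (dashed lines) are named.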

How the data were processed

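RNA-seq was performed on 8 mESC samples (2 per condition). The authors aligned reads to mm10 with STAR under the GENCODE annotation and computed FPKM with Cufflinks. The submitters' processing notes give versions 2.6.0 and 2.2.1 (for STAR, the paper's methods name another), and replicates were averaged before the tables were deposited, with 2 decimals and 0.1 as the lowest value. Depth is unknown and its effect on each value cannot be given. Loci listed in more than 1 row were represented by the row with the highest mean (13067 and 14333 rows). Differences of log2(FPKM + 1), with a pseudocount of 1 and a mean of at least 1 FPKM, were computed in Python (version 3.11.15, pandas 2.3.3, numpy 2.4.6, statsmodels 0.14.6) and read against a limit of 2-fold. No test was possible on 1 mean per condition, so the planned limma fit was not run.

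Spans are those of the tables, whose starts count from 0. Promoter windows came from RefSeq (GRCm38.p6, the assembly of mm10), for members 1 per gene, nearest to the gene's 5′ end. The farthest from that end were those of Hif1a (6492 bases) and Ldha (4329 bases). Both backgrounds count every window, also where a gene has more than 1. The 7 alternatives were no minimum, a minimum mean of 5 FPKM, 0.1 as the pseudocount, values floored at 0.1 with none added, median-ratio scaling, quantile normalization and removal of a lowess trend with genomic span (fraction 0.3). The members and lists were chosen with earlier results of these data known. All members are named. From each list of related genes outside the cell type markers, those past 2-fold in either experiment are named, or else the gene with the largest difference in each, and Actb, Hsp90ab1 and Klf3 are named besides. Marker lists check the cell type and are given by their sums and the genes past 2-fold. For overexpression, Pou5f1, Sox2, Zfp42 and Tfap2c were added after their values were seen. Slc2a1, Sdha, Hprt and the copy Eno1b were added after their values were seen.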

Additional observations from a re-analysis of the deposited data

How the results depend on the processing

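No paired analysis was possible because each condition has 1 mean, and for the same reason no replicate could be left out. Every change below follows one alternative at a time, and no member past 2-fold changed its direction in any of the 7. In sorted cells, 6 members were past 2-fold lower with a pseudocount of 0.1 and 6 with a floor of 0.1 (3 as reported), the additions being Pfkm, Egln3 and Kdm3a. Over all genes, 1049 (11.4%) and 1084 (11.8%) were past 2-fold lower under these 2 alternatives, beside 766 (8.32%) as reported. With a mean of at least 5 FPKM, 0 were past 2-fold higher (2 as reported), because Egln1 and Vegfa then lie under the minimum; over all genes that minimum left 840 higher and 417 lower, beside 1267 and 766. With overexpression, the median of the glycolytic enzymes was 0.0096 under median-ratio scaling (-0.19 as reported), and the number of members past 2-fold lower was 2 under this scaling and 1 without the span trend (6 as reported). It was 9 with a pseudocount of 0.1 and 9 with a floor of 0.1, where Hk1, Hif1a and Kdm3a were added. Over all genes, 1140 were past 2-fold higher and 713 lower under median-ratio scaling, or 61.5% of calls higher, against 738 and 1133, or 39.4%; the shares were 52.9% with quantile normalization (800 and 711) and 57.5% without the span trend (794 and 587). A pseudocount of 0.1 gave 923 and 1819 over all genes and a floor of 0.1 gave 955 and 1912. The members that lost the 2-fold limit under median-ratio scaling were Ldhb (-0.86), Egln3 (-0.86), Bnip3l (-0.92) and Vegfa (-0.89), and under quantile normalization Egln3 (-0.73) and Vegfa (-0.91), where Pgk1 (-1.40) and Pdha1 (-1.03) passed it. The sign of differences under the limit turned with overexpression for Gpi1, Pfkl, Pkm and Egln1 under median-ratio scaling and without the span trend, for Tpi1 under the former alone, for Gapdh, Ndrg1 and Ddit4 under the latter alone, and for Gapdh, Eno1, Eno2, Ldha, Pdk2 and Egln1 with quantile normalization; in sorted cells it turned for Hk2 under these 3 and for Egln2 with quantile normalization. Of the related genes, Plod1 (quantile normalization) and Bsg (both scalings) in sorted cells, and Arnt, Ep300, Ero1l, Pdk4, Tceb2 and Wsb1 with overexpression, lost the 2-fold limit under 1 to 3 alternatives, as did the markers Esrrb, Klf4 and Sox7; none changed direction. The cause of these changes was not tested.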
